A study of Caenorhabditis elegans with 4 samples.

Results

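The regions described here are the RNA polymerase II (Pol II) peaks on the X chromosome of Caenorhabditis elegans. They were taken as every line of the deposited peak list whose chromosome field is X, which gave 1108 of 10731 peaks. The list came from chromatin immunoprecipitation followed by sequencing (ChIP-seq) in N2 worms, the wild-type laboratory strain, as hermaphrodites at the last larval stage (L4) grown at 20 °C. It combines 2 Pol II ChIP samples, made with the mouse monoclonal antibody 8WG16 to the C-terminal repeats of the largest Pol II subunit, with 2 input samples of unprecipitated chromatin, and each kind has 1 sample in either replicate. All 4 samples share strain, stage, sex and genotype, so the design holds no treated or mutant worms. The extraction text that comes with the samples mentions embryos and anti-GFP serum, at odds with the labelled stage and antibody, which were followed here.

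Pol II transcribes protein-coding genes, and a ChIP peak marks DNA that was crosslinked to it more often than in input, at promoters as well as along transcribed genes. In C. elegans the X chromosome is the sex chromosome. The dosage compensation complex, a condensin-containing assembly, binds both X chromosomes of hermaphrodite somatic cells and lowers their transcription, while in the germ line X is kept largely silent by histone-modifying MES proteins. X is also known to carry few germline-expressed and essential genes, and unlike the autosomes it lacks a sharp division into gene-rich centre and repeat-rich arms. Whole worms were used, so fewer cells with Pol II at a region and less Pol II per cell cannot be told apart.

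Each peak has a start, an end and 1 q-value from the authors' caller, and strength below is −log10 of that q-value, so that larger means a stronger call. Positions are in WormBase build WS190, and peaks were placed by their midpoint. The span of X was taken to the end of its last peak, at position 17714631, and its first peak began at 7195. V alone and the chromosomes II to V pooled, a set that includes V, served for comparison. Peaks outside X and II to V count in the whole list and among peaks not on X, but were not compared. There is no value per sample, so nothing below has a replicate error and no test between chromosomes was possible. Bracketed 95% ranges on shares and ratios are exact binomial intervals, those on medians are exact order-statistic intervals, and all treat peaks as independent and cover counting error only. Peaks were not evenly scattered: the variance of the peak number over 250 kb bins was 2.76 times its mean on X and 5.67 times on V. It was 5.64 times on II, 3.30 times on III and 4.72 times on IV, where independent scatter would give about 1. The 6.28 times on II to V pooled also takes in differences in density between these chromosomes. The intervals are therefore too narrow.

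Pol II peaks on X were spread thinly, and most were short and only modestly above the calling limit. X held 62.5 peaks per Mb, against 69.0 on V and 103.8 on II to V. Their width ranged from 1 to 11335 bp, with quartiles of 323 and 1066.75 bp around a median of 566.5 bp (535 to 597), against medians of 512.5 bp (480 to 541) on V and 419 bp (407 to 430) on II to V. Strength on X ranged from 2.00 to 302, with quartiles of 2.84 and 8.83 around a median of 4.44 (4.12 to 4.81). The median strength was 4.77 (4.51 to 5.06) on V and 5.39 (5.24 to 5.55) on II to V. X peaks were therefore the widest and the weakest of the 3 sets by median, but the intervals of X and V overlapped for width and for strength.

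Compared with II to V, weak calls made up a larger part of the X peaks and very narrow ones a smaller part. Peaks with q above 0.001 were 307 on X, or 27.7% (25.1 to 30.4), against 25.2% (23.0 to 27.6) on V and 21.3% (20.3 to 22.3) on II to V. Peaks under 100 bp were 45 on X, or 4.06% (2.98 to 5.40), against 6.33% (5.13 to 7.71) on V and 8.04% (7.41 to 8.70) on II to V. Broad peaks of at least 2 kb were 122 on X, 11.0% of its peaks (9.23 to 13.0), and held 42.1% of the length inside X peaks. On V they were 10.6% of peaks (9.09 to 12.3) with 44.4% of the length, and on II to V 7.91% (7.29 to 8.57) with 37.9%.

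Strong calls, taken as a decile of the list, were less frequent on X. The decile of the whole list with the smallest q-values, 1074 peaks and called the top decile below, included 85 X peaks, or 7.67% of those on X (6.17 to 9.40), against 10.3% of all peaks not on X. The corresponding share was 11.1% (9.55 to 12.9) on V and 10.4% (9.69 to 11.1) on II to V. The last X peak inside this top decile, at 4017550 to 4020191, had a strength of 29.3, and the first one outside it, at 10567752 to 10569708, had 28.6. Per Mb there were 4.80 such peaks on X, against 7.67 on V and 10.8 on II to V. The density ratio of X to V was 0.907 (0.838 to 0.981) over all peaks and 0.625 (0.475 to 0.818) in the top decile. Since the intervals are too narrow, the first of these does not establish a difference between X and V over all peaks. The interval in the top decile lies further from 1 but is too narrow as well.

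The plot of density ratio by strength shows the ratio for peaks at or above each limit. The bands that follow instead hold only the peaks between their limits. In the weakest band, from a strength of 2 to under 3, X had 17.3 peaks per Mb and V 17.4, a ratio of 0.995 (0.852 to 1.16). From 3 to under 30 the ratio to V stayed between 0.908 and 0.965 in the 4 bands examined, each with an interval that includes 1. It was 0.741 (0.468 to 1.16) from 30 to under 50, 0.557 (0.339 to 0.896) from 50 to under 100 and 0.575 (0.329 to 0.978) from 100 upward. The intervals from 50 upward leave out 1, but they are too narrow as well and do not establish a difference from V. Against II to V the ratio was already 0.784 (0.691 to 0.887) in the weakest band. It lay between 0.506 and 0.643 in the 4 bands from 3 to under 30, and was 0.423 (0.287 to 0.603) from 30 to under 50, 0.443 (0.286 to 0.661) from 50 to under 100 and 0.504 (0.308 to 0.789) from 100 upward. At the extreme, X had 9 peaks of strength 200 or more, against 14 on V and 46 on II to V. As shares of peaks these were 0.812% (0.372 to 1.54) on X, 0.974% (0.533 to 1.63) on V and 0.658% (0.482 to 0.877) on II to V. The density ratios there, 0.757 (0.289 to 1.88) to V and 0.744 (0.320 to 1.54) to II to V, rest on too few peaks to place them.

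**Figure D1:**
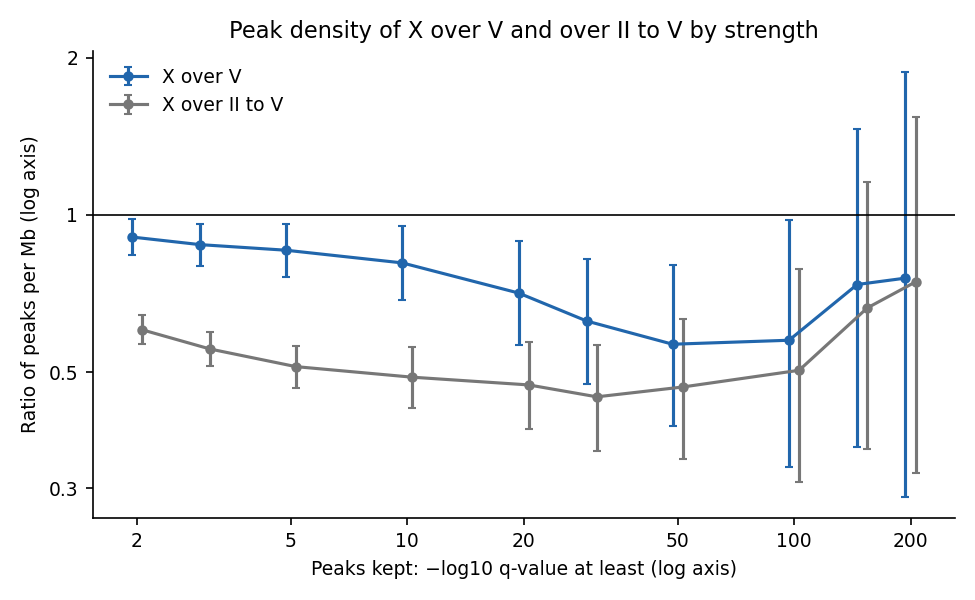
Ratio of peaks per Mb on X to V (blue) and to II to V (grey), for peaks at or above each −log10 q-value limit, with both axes logarithmic. Points are ratios and bars are 95% exact binomial intervals, which cover counting error only. The ratio to V lies at 0.907 for the full list and 0.565 at a limit of 50, and the bars widen at 150 and 200, where X has 15 and 9 peaks.

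Wide peaks were about as frequent on X as on V, but a smaller share of them was strong. Of peaks at least 1 kb wide, X had 301, or 17.0 per Mb, and V had 350, or 16.8 per Mb, a ratio of 1.01 (0.865 to 1.18). At 3 kb the ratio was also 1.01 (0.722 to 1.42), from 68 peaks on X and 79 on V, and at 5 kb it was 0.741 (0.379 to 1.41), from 17 and 27. Against II to V the ratio was 0.603 (0.565 to 0.642) for all widths, 0.850 (0.748 to 0.964) at 1 kb, 0.927 (0.700 to 1.21) at 3 kb and 0.770 (0.428 to 1.31) at 5 kb. Of those at least 1 kb wide, 82 of 301 on X (27.2%, 22.3 to 32.6) belonged to the top decile, against 141 of 350 on V (40.3%, 35.1 to 45.6) and 631 of 1346 on II to V (46.9%, 44.2 to 49.6).

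At equal listed width the median strength on X was below that on V and on II to V in each of 7 width classes. Among peaks of 250 to under 500 bp it was 3.66 (3.46 to 3.96) on X, 3.97 (3.70 to 4.30) on V and 5.06 (4.87 to 5.18) on II to V. Among peaks of 500 to under 1000 bp it was 4.94 (4.42 to 5.36) on X, 5.76 (5.19 to 6.47) on V and 7.79 (7.56 to 8.17) on II to V. Among those of 1000 to under 2000 bp it was 8.51 (6.87 to 10.7) on X, 12.3 (10.4 to 14.2) on V and 16.6 (15.2 to 17.8) on II to V. The intervals of X and V overlapped in every class, so no class separates them by itself. With widths cut into 10 equally filled classes instead, X had the lowest median in 9, the exception being 205 to under 275 bp, where X had 2.96 and V 2.93.

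**Figure D2:**
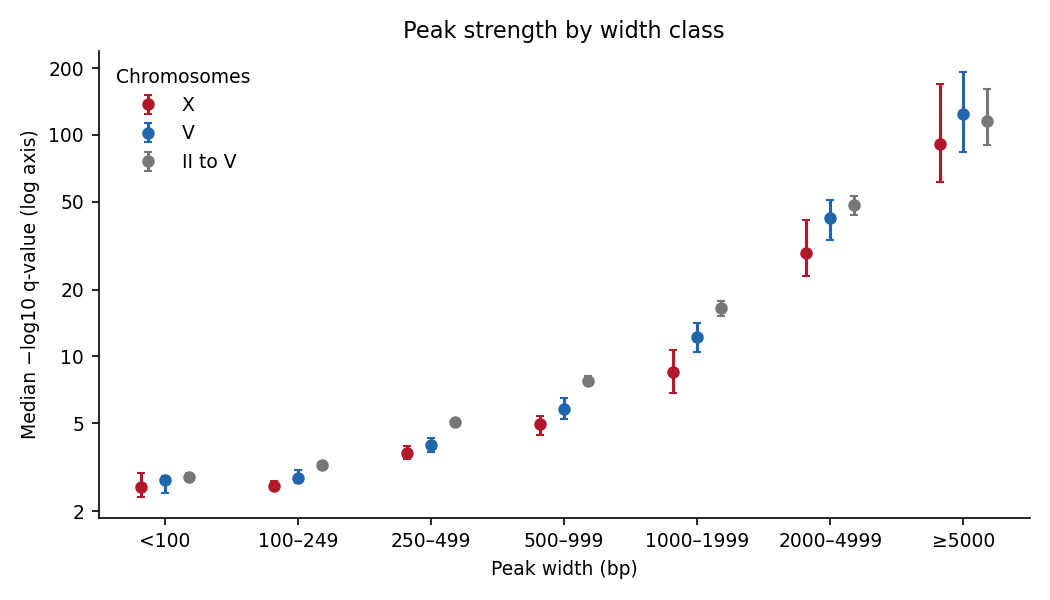
Median −log10 q-value (log axis) of peaks on X (red), V (blue) and II to V (grey) in 7 classes of peak width in bp, with 95% order-statistic intervals as bars. In each class the X point is the lowest of the 3, for example 8.51 on X, 12.3 on V and 16.6 on II to V from 1000 to under 2000 bp.

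Read the other way, the median width was larger on X than on V and on II to V in each strength band below 200. From a strength of 3 to under 5 the median width was 429 bp on X, 348 bp on V and 273 bp on II to V. From 10 to under 20 the medians were 1087 bp on X, 930.5 bp on V and 710.5 bp on II to V. From 50 to under 100 they were 3629 bp on X, from 27 peaks, 2732 bp on V, from 57, and 2713.5 bp on II to V, from 232. In the top decile as a whole the median was 3211 bp (2669 to 3710) on X, 2526.5 bp (2189 to 2937) on V and 2270 bp (2131 to 2378) on II to V. From 200 upward X, with 4611 bp from 9 peaks, lay between V, with 4383.5 bp, and II to V, with 4678.5 bp. The intervals of X and V overlapped in the top decile and in every strength band but that from 3 to under 5. There they were 399 to 479 bp on X and 325 to 388 bp on V. Since the intervals are too narrow and several bands were examined, that band does not establish a difference between X and V. A q-value depends on the reads that a region gathers, and hence on width and depth as well as on enrichment, so these values do not measure Pol II enrichment itself.

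The strongest X peaks differed widely in size. The top call on X, which ranked 3 in the whole list, lay at 15075722 to 15080567 in the right part of the chromosome, with a strength of 302 (q = 1.17e-302) over 4846 bp. The next, at 6740822 to 6745432, had a strength of 284 over 4611 bp. Ranked 3 on X, the peak at 3816346 to 3827680 was also the widest X peak, with a strength of 268 over 11335 bp. Of the 12 strongest, 5 were under 3.2 kb and 4 were at least 9 kb wide.

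Among the 5 narrower ones, the peak at 17419594 to 17421783 had a strength of 257 over only 2190 bp, which ranked it 4 by strength on X but 111 by width. Similar in strength, at 257, was the peak at 11965517 to 11968698, with a width of 3182 bp. Those at 13349124 to 13351629 and 11603110 to 11605872 had strengths of 229 and 223 over 2506 and 2763 bp. The last of the 5, at 1010221 to 1012880, had a strength of 168 over 2660 bp. It was the only one of the 12 with no other listed peak within 10 kb.

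The 4 of at least 9 kb were also the 4 widest peaks on X. Beside the one at 3816346, they lay at 12503376 to 12513665 (10290 bp, strength 206), 5111999 to 5121367 (9369 bp, strength 197) and 15268004 to 15277197 (9194 bp, strength 215). Another of the 12, at 11471124 to 11477319, was 6196 bp wide with a strength of 169. Together the 12 held 6.52% of the length inside X peaks, and with X split into 3 equal segments, 3 of them lay in the left, 3 in the middle and 6 in the right one.

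Not all wide X peaks were strong. Of the 10 widest, 9 were in the top decile, but strength among them ran from 268 down to 21.1. The weakest was the peak at 10182502 to 10188956, 6455 bp wide, which ranked 119 by strength on X. The peak at 6810987 to 6817453 was 6467 bp wide with a strength of 32.4, and that at 16611231 to 16617954 was 6724 bp wide with 49.6. Between these and the top calls lay 12907511 to 12915476 (7966 bp, strength 61.1), 9549703 to 9557437 (7735 bp, strength 88.5) and 2600756 to 2607249 (6494 bp, strength 158).

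**Figure D3:**
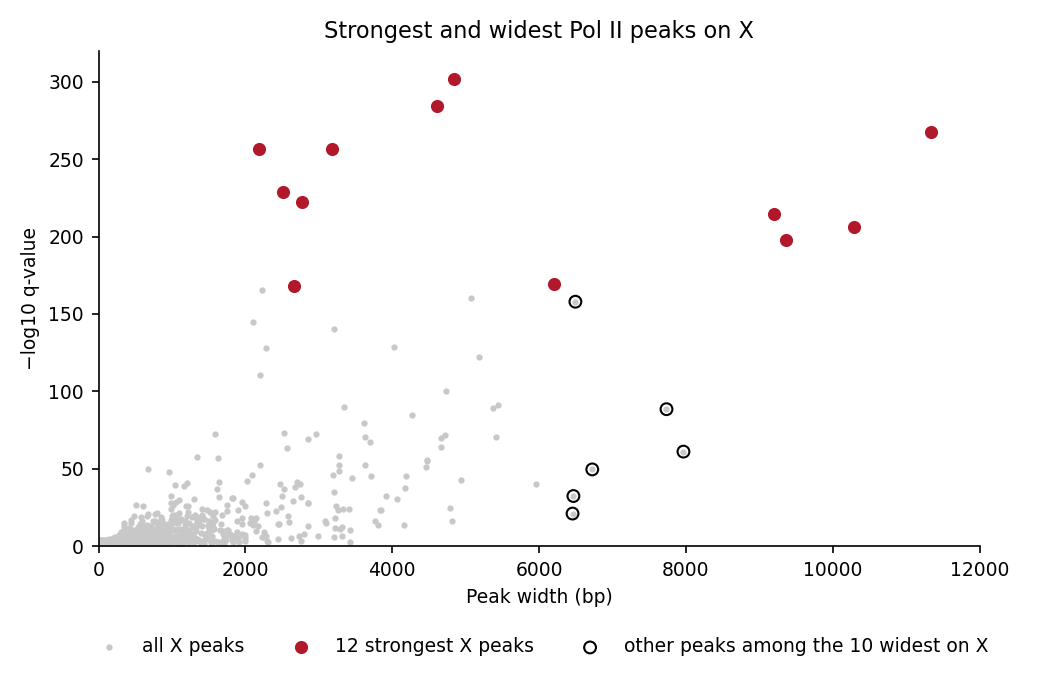
Width in bp against −log10 q-value for the X peaks (grey dots), with the 12 strongest in red and the other peaks among the 10 widest as open circles. The red points lie between 2190 and 11335 bp, all above 168, and the open circles run from 158 down to 21.1 in strength.

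Strong X peaks had a close listed neighbour more often than other X peaks. Of the 12 strongest, 9 had a neighbour less than 500 bp away, and 6 combined this with more than 10 kb without a peak on the other side. The peak at 12503376 to 12513665, for example, had its neighbours 202 bp to the right and 45.0 kb to the left. That at 11603110 to 11605872 had 234 bp to the right and 39.2 kb to the left. In the top decile on X, 42 of 85 peaks (49.4%) had a neighbour within 500 bp, against 26.7% of the other X peaks, and 18.8% showed both features, against 8.31%. On V the corresponding figures were 40.0% in the top decile and 27.5% of other peaks for a near neighbour, and 12.5% and 6.89% for both. On II to V they were 47.9% and 32.3% for a near neighbour, and 12.2% and 5.81% for both, so the close neighbours of strong peaks were not limited to X. Whether near neighbours are pieces of 1 enriched stretch was not tested.

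Along X, peak number varied less than on V and on II to V pooled. The 17 full bins of 1 Mb held 35 to 87 peaks with a median of 57, a coefficient of variation of 24.5%, against 25 to 106 with a median of 66.5 (38.3%) on V and 25 to 182 with a median of 106 (38.3%) on II to V. The pooled value also takes in differences in density between its chromosomes. Among the single chromosomes of II to V, III was more even than X, at 19.2%, while IV had 28.4% and II 35.2%. In bins of 250 kb X, at 42.1%, was close to IV (41.6%) and II (44.3%), above III (31.0%) and below V (57.5%). The densest bins on X were 6000001 to 7000000 with 87 peaks, 13000001 to 14000000 with 85 and 16000001 to 17000000 with 84. The sparsest was 1000001 to 2000000 with 35 peaks, followed by 1 to 1000000 and 14000001 to 15000000 with 47 each. The last 715 kb, a partial bin, held 69 peaks, or 96.6 per Mb.

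Bins rich in peaks did not have stronger peaks by median. Across the 17 full bins, which share 1 list, Spearman's rho of the peak number was 0.67 with covered length, -0.34 with median width and 0.04 with median strength. The bin from 6000001 combined a high number with the most covered length, 83.6 kb or 8.36%, and the most members of the top decile, 10. The bins from 13000001 and 16000001 had narrow peaks, with medians of 419 and 403.5 bp, and covered 5.77% and 5.82%. The bin from 14000001 to 15000000 was the reverse, with 47 peaks, a median width of 710 bp and the highest median strength of any full bin, 6.49. Its neighbour from 15000001 was alike, with 52 peaks, a median of 712 bp and a median strength of 6.10. The first 1 Mb had the lowest median strength, 3.59, no peak above 27.6 and none in the top decile.

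At finer scale the 70 full bins of 250 kb held 1 to 32 peaks, with quartiles of 11 and 20 around a median of 16. None was empty. The plot of 250 kb bins shows the densest, 6500001 to 6750000, with 32 peaks covering 12.6% of the bin. It was followed by 5750001 to 6000000 and 17000001 to 17250000 with 31 each, 6000001 to 6250000 with 28 and 13750001 to 14000000 with 27. These dense bins differed in content. The bin from 6500001 included 4 peaks of the top decile, among them the peak ranked 2 by strength on X, whereas those from 5750001 and 13750001 included none and had no peak above 19.9 and 28.5. At the other end, 1750001 to 2000000 held 1 peak, 3250001 to 3500000 held 2 and the first bin, 1 to 250000, held 4.

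**Figure D4:**
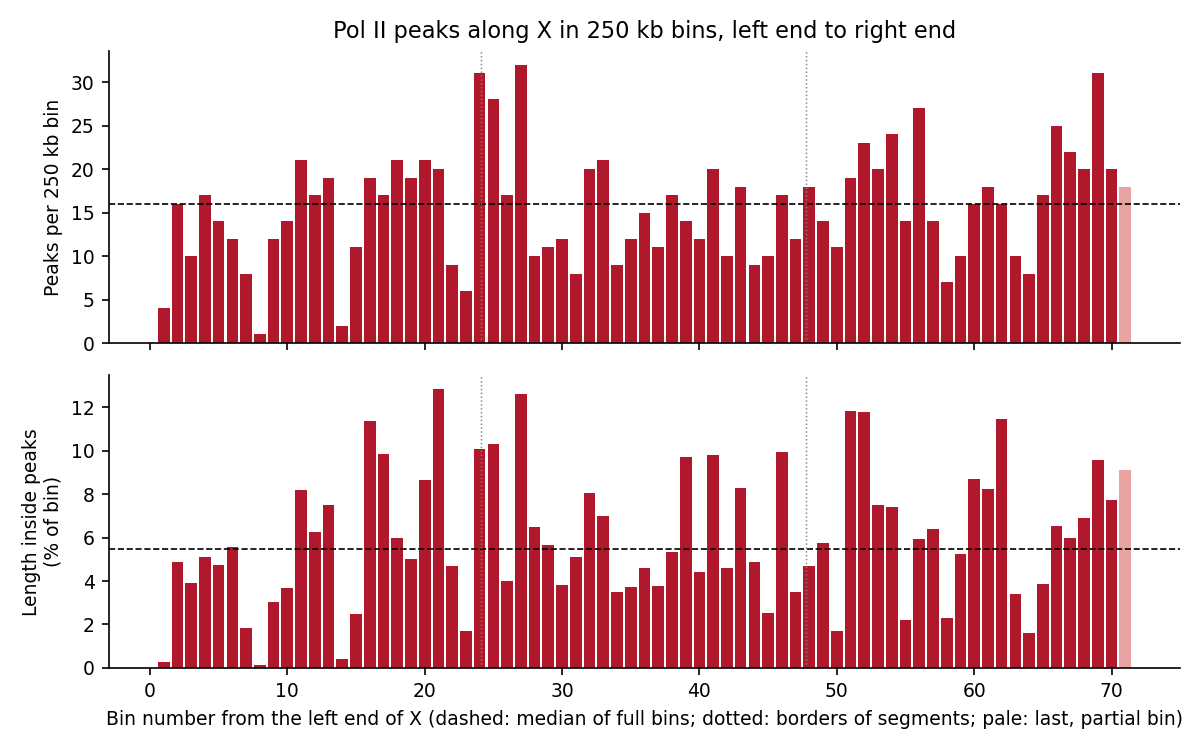
Number of Pol II peaks (top) and percentage of length inside peaks (bottom) in consecutive 250 kb bins of X from the left end to the right end; the dashed lines are medians of full bins (16 peaks and 5.46%), the dotted lines the borders between the left, middle and right segments and the pale bar the last, partial bin. The lowest bars hold 1 and 2 peaks and the highest 32, and the bars near the right end are mostly above the median.

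High-density bins were scarcer on X than on V. Bins of 20 or more peaks were 27.1% of the full 250 kb bins of X, 43.4% of those of V and 67.5% of those of II to V, and bins of 30 or more were 4.29% on X, 12.05% on V and 41.0% on II to V. Bins of 10 or fewer were about as common on X, at 24.3%, as on V, at 26.5%, and made up 13.1% on II to V. In the top decile, 28 of 70 bins on X (40.0%) had no peak, against 24.1% on V and 16.04% on II to V. The mean number of such peaks per bin was 1.20 on X, 1.90 on V and 2.70 on II to V. Shares of dense and of empty bins move with density, which is lower on X.

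Peak density on X was lowest in the left segment and highest in the right one. From left to right X had 325, 365 and 418 peaks, or 55.0, 61.8 and 70.8 per Mb, and the right segment had 1.29 times the density of the left (1.11 to 1.49). This call did not hold throughout: the ratio was 1.16 (0.958 to 1.40) with peaks closer than 2000 bp joined, 1.10 (0.978 to 1.24) between the sides of X cut at its midpoint and 1.25 (0.706 to 2.23) in the top decile. Segments of V cut in the same way held 57.0, 94.1 and 55.8 per Mb. X over V was therefore 0.966 (0.831 to 1.12) on the left, 0.657 (0.576 to 0.748) in the middle and 1.27 (1.10 to 1.46) on the right. By these values X lay below V in the middle segment and above it on the right. Since the intervals are too narrow, the ratio on the right does not establish a difference from V. These ratios by segment were also chosen after the values were seen. Against II to V, X was lower in all segments, at 0.626 (0.555 to 0.704), 0.481 (0.431 to 0.537) and 0.745 (0.669 to 0.827).

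In the top decile the middle segment again gave the lowest ratios. X held 24, 31 and 30 such peaks from left to right, or 4.06, 5.25 and 5.08 per Mb, against 4.89, 12.2 and 5.90 per Mb on V. The ratio to V was 0.831 (0.471 to 1.44) on the left, 0.429 (0.275 to 0.655) in the middle and 0.861 (0.519 to 1.41) on the right, where the full list had given a value above 1. The outer segments of X and V could thus not be told apart in strong peaks by these intervals, which are wide. Against II to V the top-decile ratio was 0.478 (0.299 to 0.733) on the left, 0.389 (0.260 to 0.564) in the middle and 0.490 (0.323 to 0.718) on the right.

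**Figure D5:**
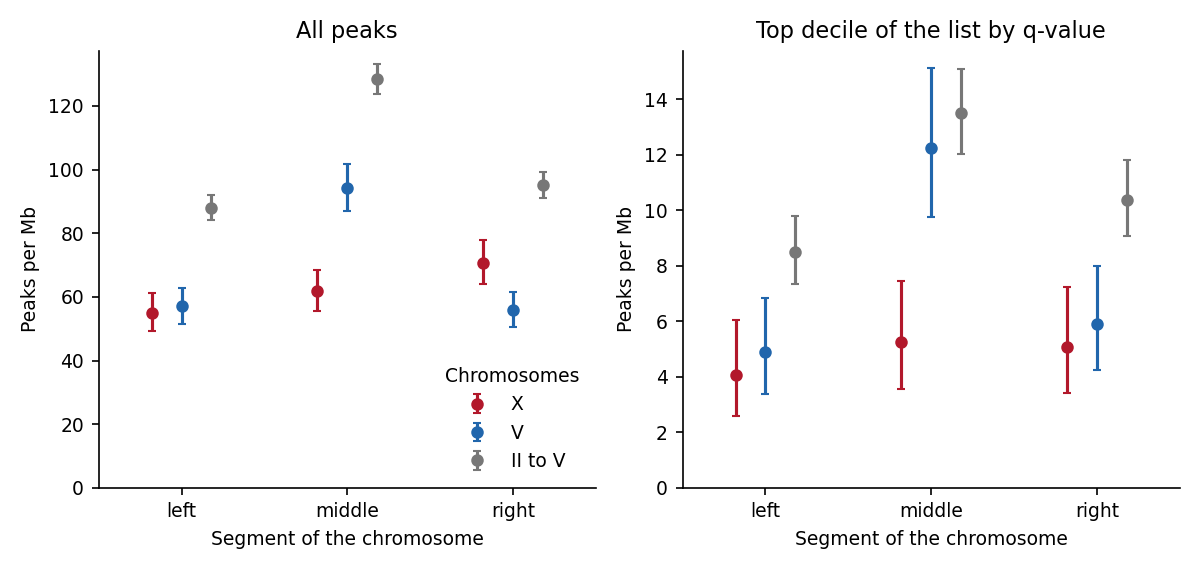
Pol II peaks per Mb on X (red), V (blue) and II to V pooled (grey) in 3 equal segments from left to right, for all peaks (left panel) and for the top decile of the list by q-value (right panel), with 95% exact Poisson intervals as bars. On V the middle segment stands out, at 94.1 per Mb for all peaks and 12.2 for the top decile, whereas X has 61.8 and 5.25 there.

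The intervals of median strength and of median width overlapped between the segments of X. Median strength was 4.41 on the left (3.86 to 5.03), 4.41 in the middle (4.03 to 5.06) and 4.54 on the right (3.998 to 5.19). Median width was 556 bp (489 to 598), 627 bp (562 to 719) and 527 bp (473 to 583). Broad peaks of at least 2 kb numbered 42, 40 and 40 from left to right. Covered length was 5.25%, 6.24% and 6.48% of the segments.

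Gaps between neighbouring X peaks were longer than on V and on II to V in the middle of their distribution, but the longest empty stretches took less of X than of V. The median of the 1107 gaps was 3688 bp (3089 to 4436), with quartiles of 910 bp and 18.2 kb, against 2768 bp (2430 to 3281) on V and 2026 bp (1932 to 2130) on II to V. The intervals of X and V overlapped, and gap lengths move with density, which is lower on X. Gaps over 50 kb numbered 91 on X and took 43.7% of its span, against 45.0% on V and 29.8% on II to V. Gaps over 100 kb numbered 20 on X and took 16.3% of the span, against 26.1% on V, from 35 gaps, and 14.0% on II to V, from 62. Within X the median gap was 5398 bp in the left segment, 3634 bp in the middle and 3148 bp in the right.

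The longest stretch of X without a peak ran from 1627309 to 1964892, 338 kb in the left segment. The next was 3246186 to 3495716, 250 kb. These stretches overlap the 2 sparsest bins of 250 kb. Then came 10842374 to 11007454 and 10402822 to 10567751, each 165 kb long, and 163694 to 324032 near the left end, 160 kb. Of the 10 peaks bordering these stretches, 4 were above the X median strength of 4.44. Their strengths lay between 2.48 and 8.11, except for 28.6 in the peak to the right of 10567751.

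Isolated peaks were weaker by median than X peaks in general, and isolated peaks on V and on II to V were also below the median there. Peaks with more than 10 kb free on both sides numbered 143, or 12.9%, against 9.60% on V and 5.88% on II to V. Their median strength on X was 3.50 (3.18 to 4.08) and their median width 391 bp, and 8 of them (5.59%) belonged to the top decile, against 7.67% of all X peaks. Isolated peaks had a median strength of 3.64 (3.27 to 4.56) on V and 4.20 (3.70 to 4.65) on II to V. Of them 10.9% on V and 11.2% on II to V belonged to the top decile, against 11.1% and 10.4% of all peaks there. Peaks with both neighbours closer than 1 kb numbered 110, or 9.93%, against 11.8% on V and 15.9% on II to V. On X these crowded peaks had a median strength of 4.92 (4.09 to 6.28) and a median width of 796.5 bp. Of them 18 (16.4%) belonged to the top decile, against 13.5% on V and 12.8% on II to V. The shares of isolated and of crowded peaks move with density alone, which is lower on X.

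Most X peaks stood alone when peaks with gaps under 1 kb were grouped into runs. The 1108 peaks formed 813 such groups, of which 628 were single peaks, 120 were pairs and 65 had 3 or more. Groups of 5 or more were 9 of the 813 on X (1.11%), against 21 of 1011 on V (2.08%) and 126 of 4558 on II to V (2.76%), and such shares move with density. The group with the most peaks, 9, ran from 2590596 to 2607249. It spanned 16.7 kb, ended in one of the 10 widest peaks and included 3 members of the top decile, with strengths up to 158. The following 2 were of another kind, with no member of the top decile. The group of 8 from 17000561 to 17010419 had strengths between 3.56 and 7.38, with a median of 5.10, above the X median of 4.44. The group of 7 from 6661925 to 6665999 had widths from 19 to 730 bp and no strength above 4.09. The longest run in length, 20.1 kb from 3816346 to 3836478, was made of 5 peaks and began with the widest peak of X.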

How the data were processed

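The authors called peaks with PeakSeq on WormBase build WS190, per the file headers and source field, and deposited 1 list named as combined over samples. It gives a start, an end and a q-value for each peak, with no strand and no value per sample. Versions, aligner and read filters are not given in the sources used here. The largest listed q-value was 0.00998 and the shortest gap 200 bp. Sequencing depth is unknown here. Formaldehyde at 2% was used for crosslinking, per the labels' protocols.

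Strength was computed as −log10 of the deposited q-value, width as end minus start plus 1, and gap as the bases between neighbouring peaks. Chromosome spans ran from position 1 to the last peak end. The top decile was the 1074 peaks with the smallest q-values of the whole list, the weakest at a strength of 29.1. Joined settings merged peaks closer than 500 or 2000 bp. Ratio intervals were conditional exact binomial (Clopper-Pearson), and functions were tested on 100 simulated lists. Regions named are the 12 strongest and 10 widest X peaks, the 5 longest stretches without a peak, the extreme bins and the longest runs. The members, comparisons and lists were chosen with earlier results of these data known; the ratios by segment and the flanking gaps were chosen after these values were seen. Peaks were not assigned to genes and no sequence was read, because no annotation or genome of WS190 was used here. Values were computed in Python 3.11.15 with pandas 2.3.3, numpy 2.4.6 and scipy 1.17.1, and plots were drawn with matplotlib 3.10.9.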

Additional observations from a re-analysis of the deposited data

How the results depend on the processing

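The lower density of X kept its direction in each of the 12 settings against II to V and in each of the 8 against V. These settings are overlapping cuts of 1 list, so their number adds little. Against II to V (0.603) it was 0.554 at q up to 0.001, 0.512 at q up to 1e-05, 0.445 in the top decile, 0.736 with peaks closer than 2000 bp joined, 0.768 in covered length, 0.658 without III and 0.524 without V. Against V (0.907) it was 0.625 in the top decile and 0.629 in the top decile of II to V and X alone. Its interval included 1 for peaks of at least 100 bp (0.929, 0.856 to 1.01). The same held with peaks closer than 2000 bp joined (0.988, 0.891 to 1.10). By segments against V, the top decile gave 0.831 on the left and 0.429 in the middle, and 0.861 on the right, where 1.27 had been found; the cause was not tested. Covered length gave 0.763 in the middle. Of the X peaks, 4.06% belonged to the best 5% of the whole list and 16.6% to the best 20%. Median width on X was 688 bp at q up to 0.001, 980.5 bp at q up to 1e-05 and 745 bp with joining under 2000 bp, and median strength was 6.15 at q up to 0.001, which leaves out the weakest peaks by construction. The width ratio to V (1.11) was 1.27 in the top decile, and that to II to V (1.35) was 1.27 for peaks of at least 100 bp and 1.24 with joining under 500 bp. The right-over-left ratio (1.29) was 1.10 (0.978 to 1.24) when X was cut at its midpoint, and its interval also included 1 with joining under 2000 bp (1.16, 0.958 to 1.40) and in the top decile (1.25, 0.706 to 2.23), and middle over outer (0.983) was 1.15 in the top decile. The densest bin held 2.49 times the peaks of the sparsest at 1 Mb, 32 times at 250 kb and 33 times in shifted 250 kb bins. The median gap was 6052 bp with joining under 500 bp and 109510 bp in the top decile. X had the lowest median strength in 100% of width classes in bp and 90% of equally filled ones. In 48 of 78 settings, some of them quoted above, the value stayed within the counting interval of the main setting. No paired analysis was possible because the list holds 1 set of calls over all samples, which also means that no replicate could be left out.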
